A study of Mus musculus with 3 samples.

Results

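The BCL2 family survival and death genes are 10 named genes that set whether a cell keeps or loses its mitochondrial outer membrane. They were chosen by symbol in the deposited gene tables, and all 10 were found among 55536 GENCODE M21 genes. The pro-survival genes are Bcl2a1a, Bcl2a1b, Bcl2a1d, Bcl2, Bcl2l1 and Mcl1, the effectors are Bax and Bak1, and the BH3-only genes are Bcl2l11 and Bid.

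Proteins of this family meet at the mitochondrial outer membrane. Bax and Bak form the pores that let cytochrome c out, the pro-survival proteins hold them back by binding their BH3 region, and BH3-only proteins such as Bim (Bcl2l11) and Bid carry death signals by occupying the pro-survival proteins or by activating Bax and Bak. In macrophages the A1 proteins, made from the Bcl2a1 genes, and Mcl1 are known as short-lived proteins whose genes can respond to inflammatory signals.

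The libraries hold total RNA, depleted of ribosomal RNA, from the cytosol of macrophages grown from the bone marrow of C57BL/6J mice. All cells had received lipid A, the part of bacterial endotoxin that TLR4 recognises, at 100 ng/ml for 120 min. There is 1 group of 3 libraries, called replicates 1, 2 and 3 as in the labels, and no untreated sample, so levels in stimulated cells are described and no response to lipid A can be measured. Age and sex are not given, and the replicates carry the same donor identifier with nothing on whether they came from separate animals, so a p-value here measures only the spread between these libraries, which may be technical.

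Levels are TPM, a read abundance scaled for transcript length and for the library, given as mean ± SD over n = 3 libraries. The libraries held 31152786, 114031592 and 59693298 expected counts in replicates 1, 2 and 3. Nuclear protein-coding genes took 21.1% to 23.5% of TPM, and mitochondrial genes 1.80%, 0.376% and 1.41%. All 8 macrophage markers were detected at a TPM of at least 1 in every library, against 3 of 30 markers of neutrophils, mast, T, B, dendritic and stromal cells. Those 3 were the neutrophil genes S100a8, S100a9 and Ngp, and the defining neutrophil marker Ly6g had 0 counts in all 3 libraries. In RNA from bulk cells, fewer cells of a type and less RNA per cell cannot be told apart.

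The A1 genes are near-identical copies, so their sequences come before their values. Bcl2a1d lies on chromosome 9 of mm10 at 88723285 to 88731914 on the minus strand, Bcl2a1a at 88956900 to 88962419 and Bcl2a1b at 89199209 to 89207827 on the plus strand. Over a coding length of 519 nt, Bcl2a1a and Bcl2a1b differed at 11 bases (97.88% identity), Bcl2a1a and Bcl2a1d at 7 (98.65%) and Bcl2a1b and Bcl2a1d at 6 (98.84%). The copies differed at 12 coding positions in all, and Bcl2a1a had its own base at 6 of them, Bcl2a1b at 5 and Bcl2a1d at 1. A pair of coding stretches, each within 1 exon, holds 11 of these positions, written in capitals. The remaining position, coding base 490, lies outside both stretches. A coding read can be given to a copy only where it covers such a position.
Bcl2a1a, first 120 coding bases, chr9:88957051-88957170, plus strand: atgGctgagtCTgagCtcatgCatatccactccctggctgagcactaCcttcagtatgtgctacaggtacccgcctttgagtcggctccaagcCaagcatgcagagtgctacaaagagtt
Bcl2a1b, first 120 coding bases, chr9:89199360-89199479, plus strand: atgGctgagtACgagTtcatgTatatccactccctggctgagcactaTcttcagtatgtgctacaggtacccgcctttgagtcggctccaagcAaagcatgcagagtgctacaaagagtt
Bcl2a1d, first 120 coding bases, chr9:88731600-88731719, minus strand: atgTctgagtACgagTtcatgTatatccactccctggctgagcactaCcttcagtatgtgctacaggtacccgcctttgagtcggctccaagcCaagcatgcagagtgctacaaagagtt
Bcl2a1a, later 120 coding bases, chr9:88957351-88957470, plus strand: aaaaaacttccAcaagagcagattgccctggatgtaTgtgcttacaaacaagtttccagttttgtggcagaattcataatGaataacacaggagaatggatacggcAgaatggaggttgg
Bcl2a1b, later 120 coding bases, chr9:89199660-89199779, plus strand: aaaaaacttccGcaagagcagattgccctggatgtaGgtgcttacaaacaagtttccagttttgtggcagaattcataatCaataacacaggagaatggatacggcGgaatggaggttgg
Bcl2a1d, later 120 coding bases, chr9:88731300-88731419, minus strand: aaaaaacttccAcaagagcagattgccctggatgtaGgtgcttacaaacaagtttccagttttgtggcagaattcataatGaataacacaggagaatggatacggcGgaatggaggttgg

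Only a small part of each A1 transcript tells it from the rest of the transcriptome. Of all 31-base words in the Bcl2a1a transcript, 161 of 789 (20.4%) occurred in no other annotated gene. The same held for 88 of 787 words (11.2%) of Bcl2a1b and 91 of 833 (10.9%) of Bcl2a1d. By contrast 99.5% of Mcl1 words, 99.6% of Bcl2l11 words and 4664 of 4665 Bcl2l1 words were found in no other gene. The A1 copies also share words with Gm29094, a gene on the same strand whose exons overlap those of Bcl2a1b over 401 bases. Gm29094 stood at 2.16, 1.39 and 2.64 TPM, so little of the signal was assigned to it. The split of reads among Bcl2a1a, Bcl2a1b, Bcl2a1d and Gm29094 is therefore uncertain.

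A stretch of the A1 promoters differs between copies in a short repeat. RefSeq promoters (GRCm38.p6, 250 bases before to 50 after each start) were matched for all 10 genes, and the stretch below shows the repeat of GAGGAA, the letters at the core of many ETS factor sites, in capitals.
Bcl2a1a, chr9:88956786-88956845, plus strand: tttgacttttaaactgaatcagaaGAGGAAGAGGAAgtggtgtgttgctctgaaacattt
Bcl2a1b, chr9:89199095-89199154, plus strand: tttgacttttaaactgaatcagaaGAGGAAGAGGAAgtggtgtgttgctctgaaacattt
Bcl2a1d, chr9:88731925-88731978, minus strand: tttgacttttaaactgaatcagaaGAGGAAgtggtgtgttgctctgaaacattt
With both strands searched over the whole window, GAGGAA was found 3 times in the Bcl2a1a promoter, 4 times in Bcl2a1b and 2 times in Bcl2a1d, and 28.3% of 32851 promoters held it at least once. The letters TGANTCA, a loose AP-1-like pattern with N any base, were found 1 time in each of the 3 A1 promoters, against 7.81% of all promoters. None of the promoters of the other 7 genes held them. In each A1 promoter the match is the tgaatca of the stretch above, with A at N. The copies share that stretch, so these are not separate matches. An NF-kB pattern of GGG, any 5 bases and CC was found 2 times in Bcl2a1b and 0 times in Bcl2a1a and Bcl2a1d, and 50.8% of all promoters held it. Matches of different motifs overlapped in 2 pairs in Bcl2a1b and in 0 pairs in the other A1 promoters. A match is a description of the sequence only.

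Of the 10 genes, 9 were detected at a TPM of at least 1 in every library, against 15.7% of all 55536 genes. Among nuclear protein-coding genes, the nearer comparison, 8281 of 22015 were detected. Bcl2 was the exception among the 10, and it passed the threshold when TPM was rescaled over nuclear protein-coding genes, at 3.19, 2.32 and 2.91. Rescaling raised the values of all genes while the threshold stayed at 1, so this pass follows from the change of scale. The median level of the 10 genes was 38.2 TPM, beside 6.79 TPM over the 8699 detected genes. By mean TPM the order was Bcl2a1b, Mcl1, Bcl2a1d, Bcl2l11, Bcl2l1, Bax, Bak1, Bcl2a1a, Bid and Bcl2, shown in the plot of member levels. Between neighbours in this order the 3 values overlapped for Bcl2a1b and Mcl1 and for no other pair in the gene tables. In the second deposited quantification they also overlapped for Bcl2l1 and Bax and for Bak1 and Bcl2a1a. With 3 libraries an exact sign test between neighbours cannot go below p = 0.25, so no such test is given.

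**Figure D1:**
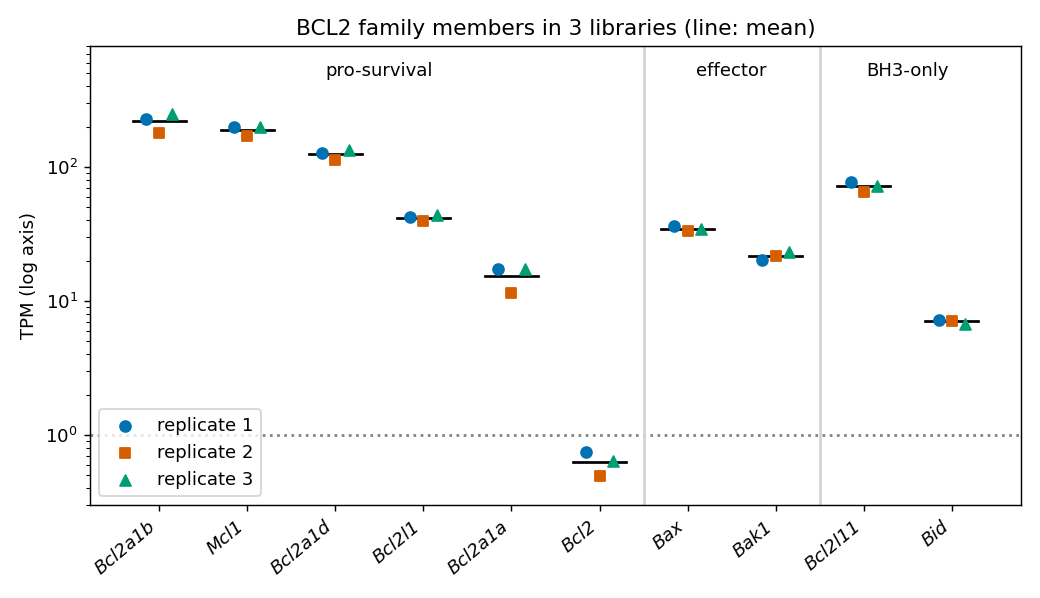
TPM on a log axis for the 10 genes, ordered by role, with 1 point per library and a line at the mean of 3 libraries. Bcl2a1b and Mcl1 overlap near the top, Bcl2 lies below 1 TPM in each library, and for 8 of the 10 genes the lowest point is replicate 2.

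Among the pro-survival genes, Bcl2a1b was the highest. It stood at 229, 180.2 and 249 TPM in replicates 1, 2 and 3 (219.5 ± 35.6), which ranked it 130 among nuclear protein-coding genes. Replicate 2 was the lowest of its values. The credibility intervals, which the authors' estimation gave within each library, ran from 219.8 to 230.2, 177 to 181 and 243 to 251 TPM. They did not overlap between libraries.

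Bcl2a1d, the copy on the minus strand, stood at 128, 113 and 133 TPM (125 ± 10.2), with intervals of 122 to 129.9, 111 to 114 and 129 to 134. Replicate 2 was again the lowest, and the intervals of replicates 1 and 3 met. Bcl2a1a was far lower than both copies, at 17.2, 11.4 and 17.2 TPM (15.3 ± 3.37), with intervals of 15.3 to 18.6, 10.7 to 12.0 and 15.9 to 18.1. No value of one copy reached into the values of another. Bcl2a1b was 13.3, 15.8 and 14.5 times as high as Bcl2a1a in the 3 libraries.

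Of the summed TPM of the 3 copies, Bcl2a1b took 61.1%, 59.1% and 62.5%, Bcl2a1d 34.3%, 37.1% and 33.2%, and Bcl2a1a 4.61%, 3.73% and 4.30%. The second quantification, which the authors made from the reads without the transcriptome alignments, gave nearly the same split. There Bcl2a1b took 60.9%, 58.9% and 62.2%, and Bcl2a1a 4.52%, 3.69% and 4.32%. Both rest on the same reads and the same few distinguishing bases. The fourth copy, Bcl2a1c, had 4, 48.3 and 21 expected counts and 0.340, 0.910 and 0.850 TPM, and was listed at 0 in all 3 libraries of the second quantification. The summed neutrophil markers stood at 24.9, 21.5 and 29.3 TPM, beside 5854, 5444 and 5334 TPM for the macrophage markers. The neutrophil sum had the same order over the libraries as Bcl2a1b. Bcl2a1d, Bcl2l1 and Bnip3l also had this order in TPM, and replicate 2 was the lowest in TPM for 63.5% of all detected genes. On counts normalised between libraries, Bcl2a1d, Bcl2l1 and Bnip3l were lowest in replicate 1, and Bcl2a1a and Bcl2a1b in replicate 2. The part of neutrophil RNA in the A1 levels was not tested.

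**Figure D2:**
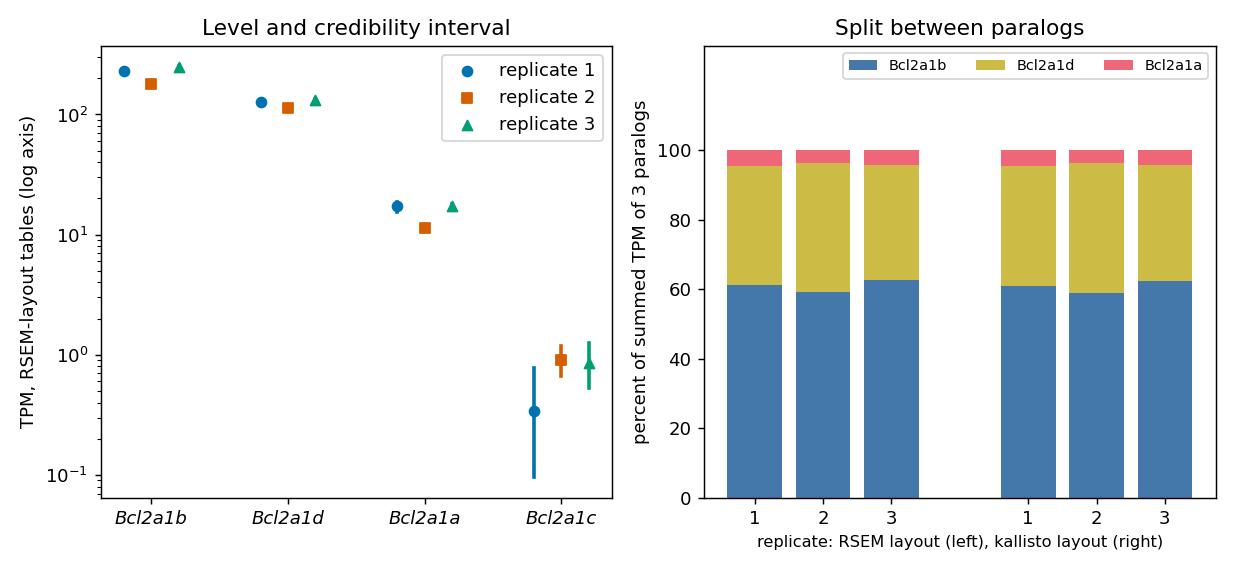
Left, TPM of the A1 copies on a log axis with 1 point per library and a line for the credibility interval within that library. Right, the percent of the summed TPM of Bcl2a1a, Bcl2a1b and Bcl2a1d taken by each copy in both quantifications, where Bcl2a1b takes 58.9% to 62.5% and Bcl2a1a 3.69% to 4.61%.

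Mcl1 (chromosome 3, 95658788 to 95663176, plus strand), which binds Bak and Bim and whose protein turns over quickly, was the next highest. It stood at 198, 169 and 197 TPM (188 ± 16.5), rank 163 among nuclear protein-coding genes. Bcl2a1b was higher than Mcl1 in 3 of 3 libraries of the gene tables, by 1.07 to 1.26 times, and in 0 of 3 libraries of the second quantification. Their order thus differed between the quantifications. The Mcl1 TPM of replicate 1 lay above its own credibility interval of 192 to 196, which is set around a posterior mean and not around the deposited TPM.

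The quantifications also split Mcl1 differently over its annotated transcripts, Mcl1-201 of 3418 nt and Mcl1-202 of 858 nt. Mcl1-202 lacks 138 bases inside the first coding exon, chr3:95658909-95659046, which is 46 codons. The stretch is in capitals with its flanks, beside the Mcl1-202 junction, because Mcl1-201 does not hold that junction.
Mcl1-201: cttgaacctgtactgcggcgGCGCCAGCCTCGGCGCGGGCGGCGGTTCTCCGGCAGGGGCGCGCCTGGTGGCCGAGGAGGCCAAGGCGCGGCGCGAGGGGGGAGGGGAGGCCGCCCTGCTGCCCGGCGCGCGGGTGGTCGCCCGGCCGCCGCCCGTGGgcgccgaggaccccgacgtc
Mcl1-202: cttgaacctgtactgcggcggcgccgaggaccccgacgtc
Of the 828 31-base words of Mcl1-202, 24 occurred in no other transcript. The models also differ outside the 138 bases, being 3418 and 858 nt long, and for Mcl1-201 it was 2584 of 3388 words. In the RSEM-layout tables Mcl1-201 had 198, 133 and 148 TPM and Mcl1-202 had 0, 36.1 and 49.5 TPM. Replicate 1 therefore had all of its Mcl1 TPM on the long transcript, while Mcl1-202 took 21.4% and 25.1% in replicates 2 and 3. The second quantification put 19.2%, 45.8% and 44.1% on Mcl1-202. Both had the lowest share in replicate 1 and differed in its size. Whether the share follows this junction or the other differences between the models was not tested.

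TPM divides by an effective length, so this split enters the gene's TPM. In replicate 1 the effective lengths were 3184 nt for Mcl1-201 and 624.2 nt for Mcl1-202. The expected counts of Mcl1-202 were 0, 5348 and 3549, beside 35447, 97711 and 53599 for Mcl1-201. As CPM, counts scaled to the library total and normalised with TMM factors, the gene stood at 1110.0, 929 and 955, so that replicate 1 was the highest on this scale. In TPM, replicates 1 and 3 lay side by side.

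Bcl2l1 (chromosome 2, 152780668 to 152831728, minus strand), the gene of Bcl-xL, stood at 42.5, 39.6 and 43.6 TPM (41.9 ± 2.08). Its values lay close together and below those of Mcl1 in every library. Most of the signal fell on the coding transcripts Bcl2l1-201 and Bcl2l1-202, at 17.5 and 19.9 TPM in replicate 1. Bcl2l1-202 has 0 words of its own among 2538, so its share is uncertain.

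Bcl2 itself (chromosome 1, 106538178 to 106714274, minus strand), the founding member of the family, was the lowest of the 10 genes. It stood at 0.750, 0.490 and 0.640 TPM (0.627 ± 0.131) from 278, 751 and 472 expected counts. All 3 values were below the detection threshold but far above the 3 counts that a count of 0 allows. Bcl2l1 was 56.7, 80.8 and 68.2 times as high in TPM. Its exons share 558 bases with D630008O14Rik on the opposite strand, which was at most 0.0200 TPM.

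Together the pro-survival genes summed to 615, 514 and 641 TPM. The 3 A1 copies made up 60.9%, 59.3% and 62.3% of this (60.8% ± 1.49), Mcl1 31.9% ± 1.05, Bcl2l1 7.14% ± 0.494 and Bcl2 0.106% ± 0.0142. The A1 share was larger than the Mcl1 share in each library. In the second quantification the A1 share was 57.1%, 53.7% and 57.0% and that of Mcl1 36.1%, 38.9% and 36.1%. Counted as reads with no length scaling the A1 share was 26.2%. The A1 transcripts are 817 to 863 nt long and Mcl1-201 is 3418 nt.

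Bax (chromosome 7, 45461697 to 45466898, minus strand), a pore former that moves from cytosol to mitochondria, stood at 36, 33.4 and 34.3 TPM (34.6 ± 1.31). Its 3 values differed little, and 99.6% to 99.8% of its TPM was on protein-coding transcripts, led by Bax-201 at 30.5 TPM in replicate 1. Gm45808, which shares 192 exonic bases with it on the same strand, was at most 0.05 TPM.

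Bak1 (chromosome 17, 27019810 to 27029009, minus strand), the pore former that sits in the mitochondrial membrane, stood at 20.1, 21.7 and 23.0 TPM (21.6 ± 1.45). It was the only one of the 10 genes whose lowest TPM was in replicate 1. Bax was 1.79, 1.54 and 1.49 times as high as Bak1.

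In the RSEM-layout tables most of the Bak1 TPM fell on transcripts that GENCODE classes as targets of nonsense-mediated decay, the pathway that degrades RNA with an early stop codon. Bak1-201 and Bak1-204 together took 67.6%, 78.6% and 80.3% of Bak1 TPM (75.5% ± 6.92) there and 46.7%, 61.1% and 65.0% in the second quantification. The share was lowest in replicate 1 in both. Of the other 9 genes only Bid has an annotated transcript of this class, which took 1.66%, 0.987% and 0.295% of its TPM.

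The internal differences between the Bak1 transcripts are short, and are shown because reads must cross them to tell the classes apart inside the gene. Bak1-201 carries a 20-base exon, chr17:27021663-27021682, in capitals, which Bak1-202 skips.
Bak1-201: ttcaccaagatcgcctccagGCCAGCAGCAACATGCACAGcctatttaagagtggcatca
Bak1-202: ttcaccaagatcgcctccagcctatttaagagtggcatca
Bak1-204 instead leaves out 5 bases at the start of an exon, in capitals in the Bak1-202 sequence.
Bak1-202: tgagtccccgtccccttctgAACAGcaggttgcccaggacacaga
Bak1-204: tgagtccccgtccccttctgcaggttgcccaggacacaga
Neither 20 nor 5 is a multiple of 3. Bak1-201 stood at 7.08, 9.27 and 10.5 TPM, Bak1-204 at 6.50, 7.79 and 7.95, and the coding Bak1-202 at 4.61, 2.70 and 1.73. Bak1-202 was the highest in replicate 1 and the lowest in replicate 3, the reverse of Bak1-201.

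The transcript models also differ at their ends, which bears on this split. The first exon is 599 bases long in Bak1-202, 168 in Bak1-201, 177 in Bak1-204 and 284 in Bak1-203. Words found in no other transcript numbered 46 of 1944 for Bak1-201, 168 of 2357 for Bak1-202, 24 of 872 for Bak1-203 and 29 of 1928 for Bak1-204. Ggnbp1 on the opposite strand shares up to 437 exonic bases with Bak1 and its higher entry stood at 0.520, 0.170 and 0.360 TPM. Whether the share on decay targets follows splicing or the first exon was not tested.

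**Figure D3:**
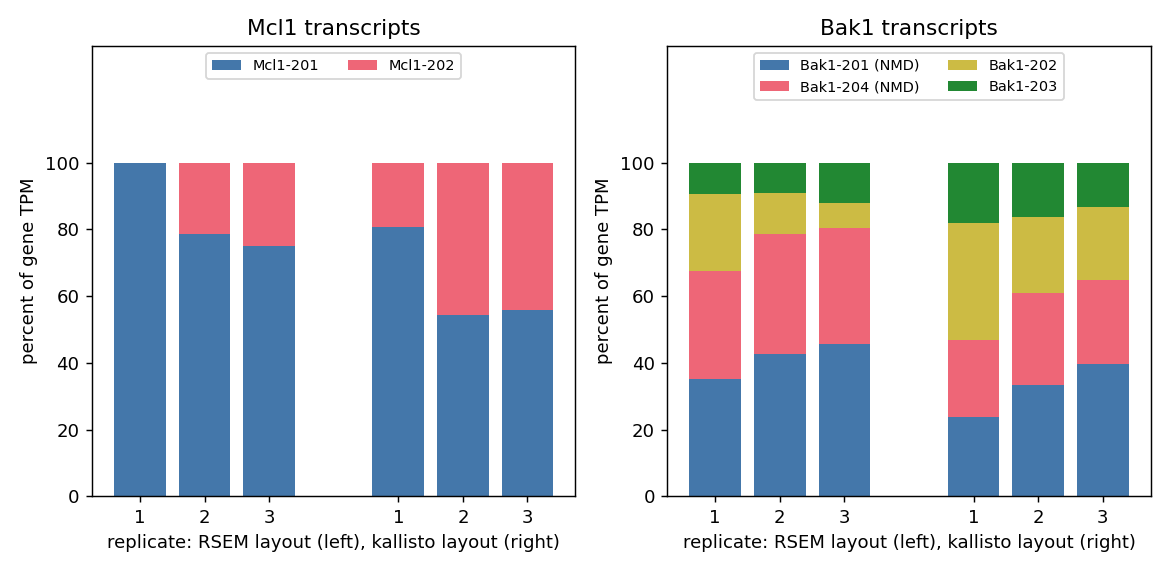
Percent of gene TPM on each annotated transcript of Mcl1 (left) and Bak1 (right), with bars for replicates 1 to 3 in the RSEM-layout and then the kallisto-layout tables; NMD marks nonsense-mediated decay targets. Mcl1-202 is at 0 in replicate 1 of the first set only, and the decay targets of Bak1 sum to 67.6% to 80.3% in the first set and 46.7% to 65.0% in the second.

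The effectors summed to 56.1, 55.1 and 57.2 TPM. The pro-survival sum was 11.0, 9.32 and 11.2 times the effector sum (10.5 ± 1.02), or 3.39 ± 0.15 on the log2 scale. In the second quantification the ratio was 11.1, 9.89 and 11.8. Replicate 2 was the lowest in both. With the Bak1 decay targets counted in, this is a ratio of RNA levels in the cytosol, and protein was not measured.

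Bcl2l11 (chromosome 2, 128126038 to 128162547, plus strand), the gene of Bim, which binds all pro-survival proteins of the family, was the higher of the BH3-only genes. It stood at 77.5, 64.5 and 72.4 TPM (71.5 ± 6.53). That placed it above Bcl2l1, Bax and Bak1 in each library, with no overlap. Bcl2l11-205, the longest transcript at 5036 nt, carried 55.5, 46.1 and 51.1 TPM of it. Transcripts annotated as processed, without a coding frame, took 3.07%, 1.61% and 3.18%.

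Bid (chromosome 6, 120891930 to 120916853, minus strand), which caspase-8 cleaves to its active form, stood at 7.25, 7.09 and 6.78 TPM (7.04 ± 0.239). Its TPM values had the smallest SD relative to the mean among the 10 genes, 3.39%. Bcl2l11 was 10.7, 9.10 and 10.7 times as high. Bcl2l13, on the opposite strand, shares 628 exonic bases with Bid and stood at 3.81, 4.11 and 3.46 TPM, so reads in the overlap are uncertain.

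The spread between libraries is the only test this design allows. A Poisson dispersion test, a chi-square of normalised expected counts over all 14037 genes with at least 10 counts on average, called 62.1% of them more variable than counting error. Of the 10 genes, 9 were called, and Bcl2l11 was not (Benjamini-Hochberg adjusted p = 0.0895). The test calls smaller spreads in genes with more counts. Bcl2l1, with 5010 to 19116 counts, was called at a coefficient of variation of 5.21% of normalised CPM. The further family gene Bmf, with 32 to 78 counts, was not called at 19.6%. Neither the 10 genes nor the lists below are matched in counts to the genes behind the 62.1%. With Mcl1 the adjusted p was 2.04e-184 and with Bcl2a1b 2.64e-104, at normalised CPM of 1110.0, 929 and 955 and of 236, 225 and 279. The expected counts of Bcl2a1a, Bcl2a1b and Bcl2a1d also rest on how shared reads were assigned, an error that the test leaves out. On the scale of normalised CPM Bcl2l11 stood at 552, 544 and 552, with a coefficient of variation of 0.820%. The widest were Bcl2a1a at 15.2%, Bcl2 at 12.5%, Bcl2a1b at 11.7% and Bak1 at 11.3%.

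None of the 10 was called once the variance was widened by a dispersion estimated over all genes together. When the variance included this common dispersion (0.0417), 0 of 10 were called, against 7.05% of all genes. None of the 10 had an unadjusted p under 0.05 in this test either (lowest 0.504), against 10.5% of all genes. The dispersion stands for a spread of 0.204 of the mean in every gene. On normalised CPM the widest of the 10, Bcl2a1a, had 15.2%. Genes below that spread could not be called, so the result for the 10 follows from the setting. The coefficients of variation of TPM had a median of 8.22% over the 9 detected members and 10.4% over all 8699 detected genes. Without replicate 2, the deepest library, 5 of 10 genes were called against 37.9% of all genes. Bcl2a1a, Bcl2, Bax and Bid were no longer called then. Without replicate 1, 8 were called against 45.3% of all genes, and Bcl2l1 was lost. The other scalings left 9 or 10 called. The share of all genes was 62.4% with DESeq2 size factors, 61.8% with library totals alone, 61.9% with TMM factors from nuclear protein-coding genes, 43.4% with no count filter and 74.9% in the second quantification. Without replicate 3 the count was 9 against 49.5%. Bcl2l11 was called with library totals alone, with TMM factors from nuclear protein-coding genes and in the second quantification, and Bax was lost with library totals alone (adjusted p = 0.0775).

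Replicate 2 had the lowest TPM for 8 of 10 genes, and for 63.5% of all detected genes. On normalised CPM it was the lowest for 5 of 10, against 25.5% of all. This library was also the deepest, had the smallest mitochondrial share and had the shortest implied fragments, 214 nt against 235 and 227. Their part in its low values was not tested.

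**Figure D4:**
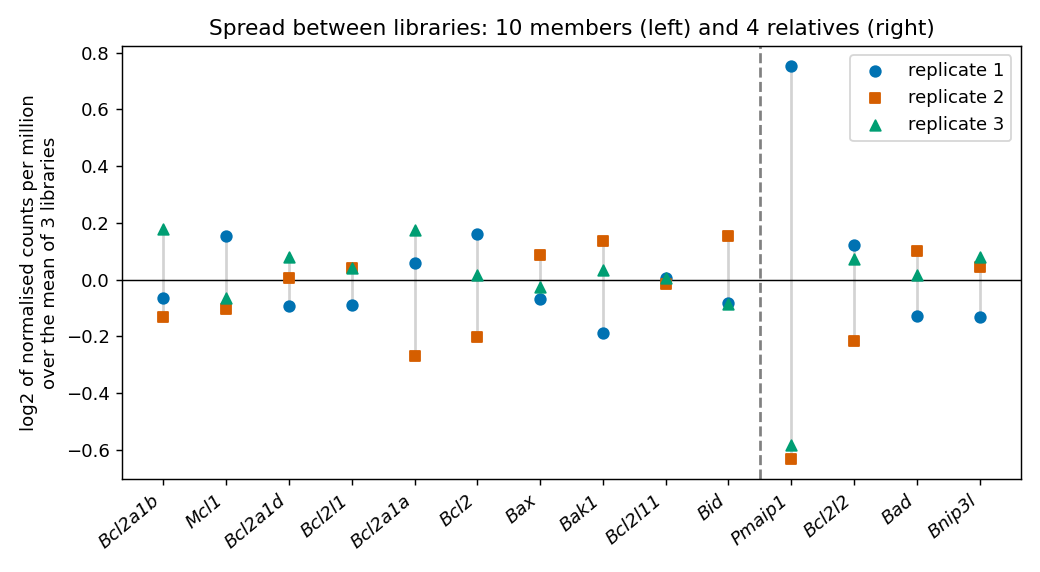
Log2 of normalised CPM over the mean of the 3 libraries, 1 point per library, for the 10 genes (left of the dashed line) and the 4 other family genes that passed the dispersion test (right). Bcl2l11 is the tightest, with values of 552, 544 and 552, and Pmaip1 stands apart in replicate 1 with 56.8 against 21.7 and 22.5.

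Of 16 further BCL2 family genes, 8 were detected and 4 of the 10 with enough counts varied beyond counting error, against the 62.1% of all genes. Pmaip1, the gene of the BH3-only protein Noxa, which binds Mcl1 and A1, stood at 13.1, 4.18 and 4.82 TPM (7.36 ± 4.96). Replicate 1 was 2.62 times as high as replicate 2 in normalised CPM (56.8, 21.7 and 22.5). It was the only gene among these 26 called with the common dispersion included (Benjamini-Hochberg adjusted p = 3.12e-05). The difference rests on replicate 1, without which the mean was 4.50 TPM and the Poisson test gave an adjusted p of 0.406, against 3.67e-154 and 3.37e-223 without replicates 2 and 3.

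The mitophagy receptor gene Bnip3l was the highest of these 16, at 21.7 ± 1.37 TPM, and its relative Bnip3 stood at 3.61 ± 0.269. Of the BH3-only genes, Bad stood at 7.19 ± 0.184 TPM and Bbc3, the p53 target that encodes Puma, at 2.68 ± 0.25. Bmf at 0.10 and Bik at 0.0600 TPM were not detected, and Hrk was listed at 0 TPM. The pro-survival gene Bcl2l2 stood at 4.12 ± 0.965 TPM and Bcl2l10 had 0 counts. Bcl2l13 was at 3.79 ± 0.325 and Bcl2l12 at 1.80 ± 0.25 TPM, while Bcl2l14 at 0.0167, Bcl2l15 at 0.0300 and the effector Bok at 0.00667 TPM were not detected. Adding the further pro-survival and effector genes left the A1 share at 60.4%.

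Of 15 genes that act after the pore opens or in the caspase cascade, 13 were detected, with a median of 5.67 TPM. Beside this, 15.7% of all genes and 8281 of 22015 nuclear protein-coding genes were detected. Of the 15 genes, 12 varied beyond counting error, beside 62.1% of tested genes called. The highest was Birc3, an inhibitor of apoptosis and known NF-kB target, at 40.3, 26.3 and 28.7 TPM. Replicate 1 lay above both others. Apaf1, the scaffold of the apoptosome, stood at 31.7, 22.1 and 22.1 TPM with the same high library. Casp8 followed at 15.5 ± 1.23 and the caspase inhibitor Xiap at 13.2 ± 2.27 TPM. Birc5 at 0.923 ± 0.158 and Endog at 0.520 ± 0.0361 TPM were not detected by the threshold.

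All 15 genes of a list that regulates or anchors the family were detected, with a median of 23.5 TPM, and 12 varied beyond counting error, beside the same 15.7% and 62.1%. Tpt1, whose protein binds Mcl1, was the highest at 1156, 855 and 843 TPM. The kinase gene Pim1 followed at 171, 102 and 121 TPM. In both, replicate 1 was the highest. Ywhaz, a 14-3-3 gene, stood at 85.4 ± 9.97 TPM, and the outer-membrane channel genes Vdac2, which anchors Bak, and Vdac1 at 44.0 ± 4.32 and 41.0 ± 2.82. The lowest were the transcription factor gene Foxo3 at 3.32 ± 1.28 and Fbxw7, a ubiquitin ligase subunit that acts on Mcl1, at 2.76 ± 0.486 TPM. None of either list was called with the common dispersion included, beside 7.05% of all genes tested.

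Over the 3 libraries, the nuclear protein-coding genes nearest to Bcl2a1b by Euclidean distance of log2(TPM + 1) were Trf (0.203), Ahnak (0.213) and Hspa5 (0.215), out of 21922. Those nearest to Mcl1 were Fam20c (0.0835), Lipa (0.112) and Anxa1 (0.130). With 3 libraries this likeness rests mainly on the level.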

How the data were processed

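Per the text listing deposited with each library, the tables use mm10 and GENCODE M21. Which aligner, versions and strandedness were used is not given in the sources used here, so values of overlapping genes are uncertain. The authors deposited expected counts (model estimates, rounded to whole numbers here for tests), TPM, the percent of gene TPM per transcript, and bounds of the TPM credibility interval, treated as a signal, per the file headers. Transcript tables in the kallisto layout are called the second quantification, with deposited estimated counts and TPM. TPM divides by effective length, so abundant short RNAs lower all other values.

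The members and lists were chosen with earlier results of these data known. Named were all 10 members, all other listed family genes, the 5 highest and 2 lowest of the downstream and regulator lists, and the 3 genes nearest to Bcl2a1b and Mcl1. Of the downstream genes so chosen, 1 is not reported here. Replicate numbers come from the labels. The dispersion test (2 degrees of freedom, mean count of at least 10, threshold 0.05, adjusted over all genes tested) used TMM factors from edgeR 4.0.16 in R 4.3.3, with DESeq2 1.42.0 size factors as an alternative. It was run on simulated Poisson counts with replicate 1 changed in chosen genes. There it recovered 48.0% of 1.25-fold and 98.0% of 4-fold changes, with 9 false calls among 14022 genes tested. Those counts hold counting error only, so they do not check the test under the wider spread of these libraries. Other values used scipy 1.17.1, pandas 2.3.3 and numpy 2.4.6 in Python 3.11.15. A count of 0 allows up to 3 counts, or 0.0963, 0.0263 and 0.0503 CPM in replicates 1 to 3, for counting error only. Transcript words of 31 bases were compared over all GENCODE M21 transcripts. Protein sequence features were not analysed here. Other alternatives were other TPM thresholds, posterior mean TPM, TPM rescaled over nuclear protein-coding genes, wider lists and leaving out each library. Rescaling the second quantification was chosen after seeing the data.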

Additional observations from a re-analysis of the deposited data

How the results depend on the processing

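The number of genes varying beyond counting error was 9 and stayed at 9 or 10 with DESeq2 size factors, library totals, TMM factors from nuclear protein-coding genes, no count filter and the second quantification. It was 0 with the common dispersion included and ranged from 5 to 9 when a library was left out (5 without replicate 2, 8 without replicate 1). Detection was 9 throughout, and 10, Bcl2 included, with TPM rescaled over nuclear protein-coding genes. Rescaling raised the values of all genes under an unchanged threshold, and no share of all genes is given on that scale. The A1 share of pro-survival TPM was 60.8%, 56.0% in the second quantification, 26.2% from counts without length scaling, and 60.1% to 61.6% with a library left out. The log2 ratio of pro-survival to effector TPM was 3.39, 3.81 from counts without length scaling, and 3.34 to 3.47 with a library left out. The levels of all 10 genes moved by more than 1 SD in the second quantification, where they were 0.369 to 0.469 times the printed TPM, and 0.946 to 1.20 times once both were rescaled. Rescaling itself raised all 10 (Bcl2a1b from 219.5 to 987). They moved by less than 1 SD with posterior mean TPM. Leaving out a library cannot move a mean over these libraries by 1 SD, so that setting does not check the levels. No paired analysis was possible because there is only 1 group.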
